A study of Mus musculus with 57 samples.

Results

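The mitochondrial respiratory chain is built from subunits of nuclear and of mitochondrial origin, and the genes described here are the nuclear ones. They were taken by symbol from the table of all cells, as genes that begin with Nduf (leaving out Ndufaf), Sdha to Sdhd, Uqcr, Cox4 to Cox8 or Atp5. This gave 81 members among 12887 gene rows, with 38 in complex I, 4 in complex II, 8 in complex III, 14 in complex IV and 17 in complex V. Ndufa4, first found with complex I and since placed in cytochrome c oxidase, was counted in complex IV. Cyc1, the cytochrome c1 of complex III, falls outside these symbols and is not among the members. Of the 81 members, 79 were coding genes and 2, Ndufab1-ps and Ndufb4c, were processed pseudogenes whose reads cannot be parted with certainty from those of Ndufab1 and Ndufb4.

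The study set tumour cells that had kept a membrane dye in bone against tumour cells that had lost it. RM1, a mouse prostate cancer line carrying eCFP (a cyan fluorescent protein) and luc2 (firefly luciferase), was stained with the dye PKH26 and injected into the hearts of C57BL/6 mice. PKH26 is diluted by division, so sorted cells that retained it were called dormant and sorted cells without it proliferating, and single cells were isolated by FACS. Here 28 dormant cells (6 mice) and 29 proliferating cells (6 mice), taken on days 13 to 26, were analysed, and 4 of the 8 mice gave both states. The labels give every cell as RM1, a single line, and the hosts kept their own marrow leukocytes. Each library batch held a single state, so the effects of batch and of state cannot be told apart.

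In the respiratory chain, complex I takes electrons from NADH and complex II takes them from succinate, both pass them to ubiquinone, complex III hands them on to cytochrome c, and complex IV gives them to oxygen. Complexes I, III and IV pump protons out of the matrix, and complex V, the ATP synthase, lets them back in through its membrane ring while its catalytic head makes ATP. Complex II pumps no protons and is also an enzyme of the citric acid cycle. All its subunits are nuclear, while each of the other complexes also holds subunits encoded in mitochondrial DNA. The nuclear subunits are made in the cytosol and imported, and their promoters are known targets of NRF1, of GABPA (also called NRF2), of YY1 and of the estrogen-related receptor alpha.

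The 81 members were well covered at the depth of these libraries. Reads recovered from the deposited values ran from 945351 to 5306777 per cell, and genes above 0 from 2397 to 10507 per cell. Of the dormant cells, 6 had almost no eCFP, and they are treated as a group of their own here, called low-label dormant. Their eCFP values were at most 87.6 normalised reads, and the next lowest value of any cell was 327, on either side of a threshold of 100 that an earlier look at these data had set. In these 6 cells Krt8, a keratin of the epithelial RM1 cells, was between 0 and 9.4 normalised reads, against 560 to 15246 in the other 22 dormant cells, called labelled dormant. Lyz2, the lysozyme of myeloid cells, was between 52145 and 188632 normalised reads in the 6 low-label dormant cells, against 0 to 95205 with a median of 7.19 in labelled dormant cells, so the ranges overlapped, and 10 to 18 of 18 pan-leukocyte genes were above 0 in each of them. The eCFP, Krt8 and leukocyte values together go against the RM1 label of the 6 cells. The same list stood at 1 to 18 genes in labelled dormant cells and 1 to 15 in proliferating cells, so that 11 labelled dormant and 11 proliferating cells had at least 5 of the 18. Results over all dormant cells are therefore given with and without the low-label ones. Cells were averaged within a mouse and state on the log2(value + 1) scale, and all ± values are SDs between such mouse means. Nothing in the labels ties cells to separate injections within a mouse, and the mouse was the replicate.

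Promoters were available for 66 of the 81 members, from 250 bases before to 50 bases after the start, per RefSeq on GRCm38.p6. Each was searched on both strands for a short core motif of 4 factors known to act on these genes. The NRF1 motif TGCGCATGC was in the promoters of 5 members (7.58%), against 1.72% of the promoters of all 27025 genes in the same table. The GABPA motif CCGGAAGT was in 5 (7.58%), against 4.31% of all. The YY1 motif AAGATGGC was in 10 (15.2%), against 3.19% of all, and lay between 88 bases before and 39 bases after the start. The motif of the estrogen-related receptor, TCAAGGTCA, was in 2, Atp5g3 and Sdhd (3.03%), against 0.47% of all. In total 22 of the 66 held at least 1 of these motifs, and a match is a description of the letters, not a site of binding. Below, 1 promoter is shown for each motif, with the motif in capitals on whichever strand it lies.
Ndufa8, NRF1 motif, GRCm38.p6 chr2:36049289-36049588, minus strand: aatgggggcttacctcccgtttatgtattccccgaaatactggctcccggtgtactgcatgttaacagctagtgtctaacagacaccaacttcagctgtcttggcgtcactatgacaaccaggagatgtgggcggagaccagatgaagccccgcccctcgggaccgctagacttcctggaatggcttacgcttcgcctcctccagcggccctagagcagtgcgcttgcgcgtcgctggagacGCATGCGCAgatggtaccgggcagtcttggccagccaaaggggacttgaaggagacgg
Cox8a, GABPA motif in 2 places, GRCm38.p6 chr19:7217567-7217866, minus strand: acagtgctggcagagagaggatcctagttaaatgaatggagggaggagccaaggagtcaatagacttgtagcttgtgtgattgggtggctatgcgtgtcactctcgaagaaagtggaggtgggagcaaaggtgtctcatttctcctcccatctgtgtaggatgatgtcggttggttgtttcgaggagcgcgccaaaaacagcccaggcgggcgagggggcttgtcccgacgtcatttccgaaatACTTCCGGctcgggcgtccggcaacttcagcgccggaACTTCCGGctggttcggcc
Atp5j, YY1 motif, GRCm38.p6 chr16:84834927-84835226, minus strand: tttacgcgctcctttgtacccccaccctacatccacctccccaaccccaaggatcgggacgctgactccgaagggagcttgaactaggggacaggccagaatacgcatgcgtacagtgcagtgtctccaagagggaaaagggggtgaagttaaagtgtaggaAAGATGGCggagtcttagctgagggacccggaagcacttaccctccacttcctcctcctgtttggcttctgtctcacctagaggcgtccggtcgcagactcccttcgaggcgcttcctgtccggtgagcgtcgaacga
Atp5g3, estrogen-related receptor motif, GRCm38.p6 chr2:73911277-73911576, minus strand: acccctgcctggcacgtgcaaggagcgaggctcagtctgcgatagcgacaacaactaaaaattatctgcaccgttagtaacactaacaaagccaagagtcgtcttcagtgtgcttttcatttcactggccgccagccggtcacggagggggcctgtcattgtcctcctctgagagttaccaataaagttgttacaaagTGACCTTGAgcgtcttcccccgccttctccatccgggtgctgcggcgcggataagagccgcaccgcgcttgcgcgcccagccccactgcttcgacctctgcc

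Nearly all members were read in nearly all cells. Of the 81, 30 (37.0%) were above 0 in every one of the 57 cells, against 3.87% of all genes tested, and 76 (93.8%) were above 0 in at least 50 cells, against 22.2% of all genes tested. The 5 that were read in fewer cells were Ndufs1 (48 cells), Atp5s (32 cells), Ndufab1-ps (29 cells), Cox6a2 (18 cells) and Cox7a1 (13 cells). Among the 51 cells with eCFP, the median SD of a member across cells was 1.12 on the log2(value + 1) scale, against 2.69 for all genes tested, which are mostly lower in level. Complex V and complex IV varied least, with median SDs of 0.70 and 0.77, and complexes III, I and II had 1.19, 1.32 and 1.57. The steadiest member was Atp5d, the delta subunit of the ATP synthase stalk, at an SD of 0.50, and the least steady was Sdha, the flavoprotein of succinate dehydrogenase, at 3.60.

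Levels were set side by side per kb of exon. In complex V the highest was Atp5b (1734 normalised reads per kb, mean over 57 cells), the catalytic beta subunit, at chr10:128083273-128090391 on the plus strand of GRCm38. It was followed by Atp5g3 at 1372, Atp5a1, the alpha subunit, at 1183, and Atp5c1, the gamma subunit of the rotor, at 1028. By the longest transcript Atp5b stood at 3835 and Atp5g3 at 3472, and Atp5j, of the peripheral stalk, at 2140 came before Atp5a1 at 1387. The lowest in complex V was Atp5s, a factor B-like protein that is not a core subunit, at 33.8. In complex I the accessory subunits Ndufa1, Ndufa2 and Ndufb6 led with 2000.1, 1837 and 1740 per kb, while the core subunits Ndufv1, which binds NADH, and Ndufs1, which carries iron-sulfur clusters, stood at 183 and 80.8, or 290 and 245 by the longest transcript. Complex III was led by Uqcrb at 2067, the highest of all 81 members on this scale and of rank 3 with the length of the longest transcript, against 238 for Uqcrc1 and 496 for Uqcrfs1, the Rieske iron-sulfur protein. In complex II the membrane anchor Sdhd stood at 1239, the iron-sulfur subunit Sdhb at 627, Sdha at 167 and the other anchor Sdhc at 80.4, and by the longest transcript at 1239, 1140, 238 and 82.4 in the same order. The median of the coding subunits, taken in each cell, had a median over cells of 718 per kb in complex IV, 552 in III, 420 in V, 407 in II and 267 in I. With the length of the longest transcript in place of all exons, these were 930 in IV, 690 in III, 703 in V, 593 in II and 357 in I, so III and V changed places while IV stayed at the top and I at the bottom.

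**Figure D1:**
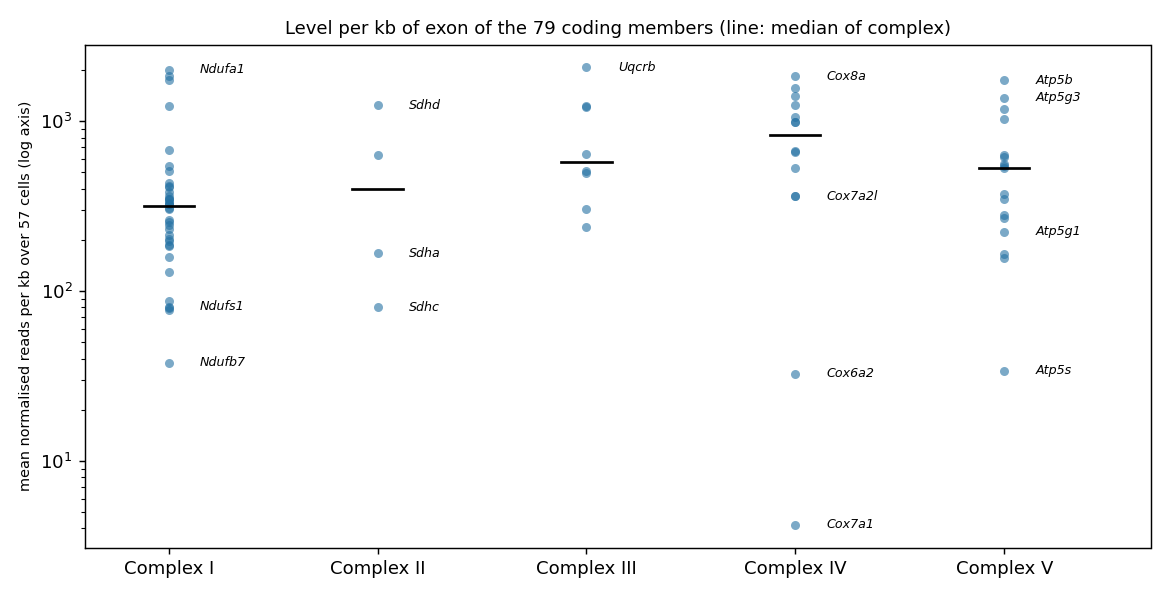
Mean level over 57 cells (normalised reads per kb of exon, log axis) of each of the 79 coding members, in a column for each complex, with a line at the median of the members. The highest is Uqcrb at 2067 per kb, and the muscle forms Cox6a2 and Cox7a1 lie at 32.7 and 4.2.

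For the subunits Cox6a and Cox7a, which exist in several forms, the widely expressed form was read in every cell. Cox6a1 and Cox7a2, the forms of most tissues, were above 0 in all 57 cells, at 1567 and 1247 per kb. Their heart and muscle counterparts Cox6a2 and Cox7a1 were above 0 in 18 and 13 cells, in 6 of them together, at means of 32.7 and 4.2 per kb. Cox6a2 was above 0 in 2 of 6 low-label dormant cells, 9 of 22 labelled dormant cells and 7 of 29 proliferating cells. It reached 378 normalised reads in a labelled dormant cell, against 84.1 at most in a proliferating cell. By mouse, Cox6a2 averaged 3.23 ± 3.03 in labelled dormant cells (SD, n = 4 mice) and 1.5 ± 1.74 in proliferating cells (SD, n = 6 mice) on the log2(value + 1) scale. The labelled dormant means of 0, 1.35, 5.31 and 6.26 spanned the whole range of the proliferating ones, which ran from 0 to 4.18. None of 7 marker genes of muscle and brown fat on a list made for this purpose has a row in the table, so no second measure of such tissue was used here. Cox7a2l, a relative of Cox7a2 that helps join complexes III and IV, was above 0 in 53 cells at 362 per kb.

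The membrane ring of the ATP synthase has 3 genes for a single mature protein, Atp5g1, Atp5g2 and Atp5g3, which differ in the leader that is cut off on import. Atp5g3 was the highest of the 3 per kb in 57 of 57 cells, with either choice of length. Its mean was 1129 per kb in dormant and 1607 per kb in proliferating cells, against 216 and 231 for Atp5g1 and 275 and 289 for Atp5g2. By mouse, Atp5g3 averaged 10.92 ± 0.84 in dormant cells and 11.60 ± 0.44 in proliferating cells (SD, n = 6 mice each) on the log2(value + 1) scale. The difference of −0.68 (SE 0.46) had an adjusted p of 0.671 with limma, and without the low-label cells it was −0.29 (SE 0.37).

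Between dormant and proliferating cells no respiratory chain subunit passed the test over all mice. limma called 0 of the 81 members and 0 of 11843 genes tested (a background of 0%), with unadjusted p under 0.05 for 2 members, both lower in dormant cells, and for 389 genes higher and 737 lower among all. edgeR on the recovered reads called 0 genes, and DESeq2 called 304 genes, 296 of them higher, with no member among them. Mouse means of dormant and proliferating cells did not overlap for 0 members, beside 0.0422% of genes wholly higher and 0.363% wholly lower in dormant cells. The member differences, dormant minus proliferating, had a median of −0.10 with 37 above and 44 below 0, beside a median of −0.35 over all genes tested, of which 36.9% were above 0. After rescaling each cell by its median ratio over genes read in all cells, the member median became 0.31 and that of all genes −0.16, so the direction of the members as a group turns with the scaling. It also turned with 1 cell or mouse, at 0.09 without cell 25 of mouse 369, 0.11 without mouse 369 and 0.05 without mouse 1185, against −0.29 without mouse 268 and −0.33 with mice weighted by their cells. By complex the medians were 0.09 in I, 0.13 in II, −0.02 in III, 0.17 in IV and −0.54 in V. Of 17 pan-leukocyte genes tested, 17 had differences above 0 here, at a median of 4.65, and their part in the member values was not tested. In complex V 14 of 17 differences were below 0, against 18 of 38 in I, 2 of 4 in II, 4 of 8 in III and 6 of 14 in IV.

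**Figure D2:**
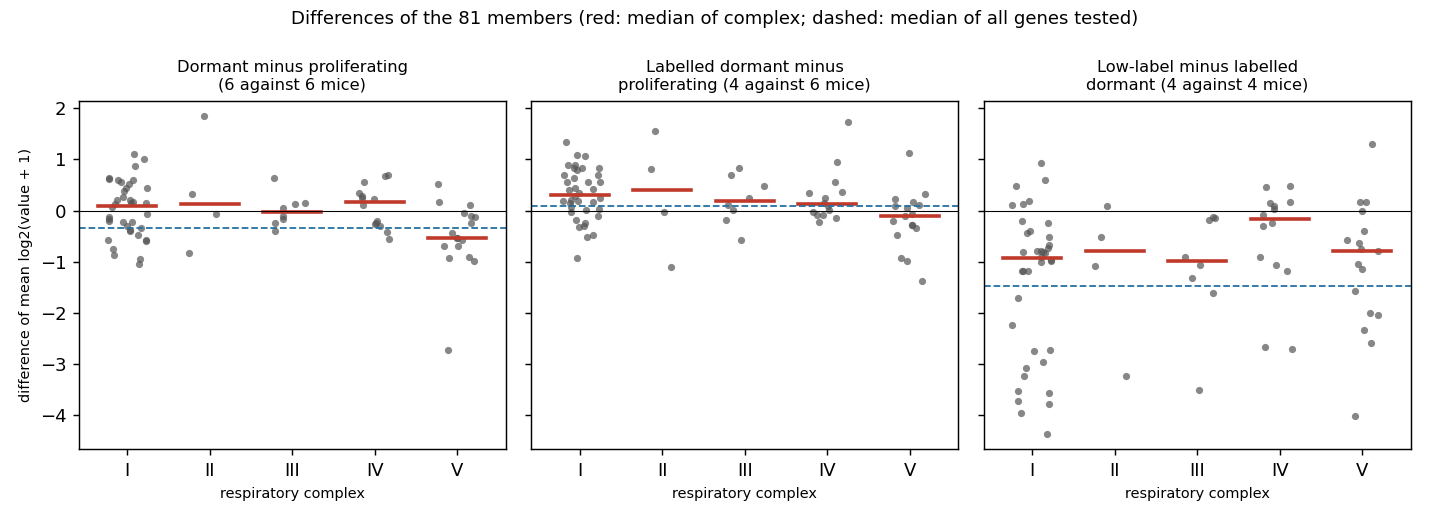
Differences of mean log2(value + 1) for each of the 81 members (points), by complex, in 3 comparisons, with the median of each complex in red and that of all genes tested as a dashed line. Members of complex V lie lowest in the first panel (median −0.54), are near 0 in the second (−0.10), and all complexes but IV have medians between −0.79 and −0.99 in the third.

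The member with the smallest unadjusted p was Atp5b, of the catalytic head of the ATP synthase. It had mouse means from 10.83 to 12.86 in dormant cells with a median of 12.18, against 12.34 to 13.12 with a median of 12.96 in proliferating cells. The ranges overlapped, and in the 4 mice with both states dormant cells were lower in each, but labelled dormant cells alone in 2 of 3. The averages were 11.92 ± 0.75 in dormant and 12.82 ± 0.33 in proliferating cells (SD, n = 6 mice each). The difference was −0.91 (SE 0.38), with an adjusted p of 0.463 by limma. Set on labelled dormant cells alone, it was −0.10 (SE 0.29), so the value over all dormant cells moved with the low-label ones.

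For Atp5c1 (chr2:10056016-10080510, minus strand) the difference was about as large without the low-label cells. Its mouse means were 9.67, 10.23, 10.42 and 10.60 in labelled dormant cells, against 10.80 to 11.73 with a median of 11.14 in proliferating cells. These did not overlap, which held for 1 of the 81 members and, in this direction, for 0.181% of all genes tested (0.207% in the other). The difference was −0.93 (SE 0.42), against −0.99 (SE 0.50) with the low-label cells included, and the adjusted p by limma was 1.00 without and 0.542 with them. Within the 4 mice with both states it was −1.25 (SE 0.52), lower in dormant cells in 4 of 4 mice and in labelled dormant cells alone in 3 of 3, with an adjusted p of 0.536 by limma. Atp5s was the other member with a low unadjusted p over all mice. It had reads in 13 dormant cells of 28 and in 19 proliferating cells of 29, and 3 of 6 dormant mouse means were 0, while the proliferating ones ran from 3.51 to 6.26. Its difference of −2.72 (SE 1.18) had an adjusted p of 0.477 by limma and became −1.38 (SE 1.26) without the low-label cells.

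In the electron-carrying complexes no member had an unadjusted p under 0.05 in this comparison. In complex I, Ndufb9, an accessory subunit of the membrane arm, averaged 9.36 ± 0.92 in dormant and 10.31 ± 0.57 in proliferating cells (SD, n = 6 mice each), and Ndufb10, another accessory subunit, averaged 7.60 ± 1.00 and 8.65 ± 0.73. Ndufb6 went the other way, with 9.85 ± 0.92 in dormant and 8.84 ± 2.08 in proliferating cells. In complex III, Uqcr10 averaged 9.25 ± 0.55 in dormant and 8.60 ± 1.98 in proliferating cells, Uqcrb 10.46 ± 0.92 and 10.86 ± 0.38, and Uqcrq 9.66 ± 0.93 and 9.90 ± 0.80. In complex IV, Cox4i1, the regulatory subunit, averaged 10.70 ± 0.36 in dormant and 10.35 ± 0.71 in proliferating cells, and Cox5a 10.28 ± 0.43 and 9.61 ± 2.19. Ndufa4 averaged 10.11 ± 0.68 and 9.41 ± 1.88. Without the low-label cells the difference of Ndufb9 was 0.02 (SE 0.48), against −0.95 (SE 0.57) with them. For Ndufb10 it was −0.92 without them, for Ndufb6 1.09, for Uqcr10 0.83, for Uqcrb −0.57 and for Uqcrq 0.25. For Ndufa4, Cox4i1 and Cox5a it was 0.95, 0.37 and 0.55. The wide proliferating SDs of Ndufb6, Uqcr10 and Cox5a go with mouse 268, whose means were 5.08, 4.73 and 5.23. That mouse gave 2 cells, and 1 of them had 2397 genes and 52 members above 0, the fewest genes of any cell.

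Within the 4 mice with both states, fitted with the mouse as a block, 72 of 81 member differences lay below 0, at a median of −0.35. Over all 11565 genes tested the median was −0.72, so most genes lay below 0 as well, at a median further from 0 than that of the members. Without cell 25 of mouse 369 the member differences below 0 were 54 of 81 at a median of −0.08, and without all low-label cells 54 at −0.14. The median was −0.13 from the log2 of the mean value, −0.61 with mice weighted by their cells, and −0.20 (without mouse 369) to −0.64 (without mouse 452) leaving out a mouse. limma called 0 members and 0 genes (a background of 0%), with unadjusted p under 0.05 for 3 members, all lower (Ndufb10, Atp5b and Atp5c1), and for 119 genes higher and 950 lower. edgeR called 0 genes, and DESeq2 called 218, with no member. Mouse means lay wholly lower in dormant cells for 2 members, Atp5b and Atp5k, beside 3.85% of all genes tested, and wholly higher for none, beside 0.242%. By mouse, the mean difference over all members was −0.97 in mouse 369, −0.81 in mouse 1185, −0.09 in mouse 360 and 0.18 in mouse 452. The complex V score differed by −1.01 in mouse 369, −0.78 in mouse 1185, −0.63 in mouse 360 and −0.25 in mouse 452. In mouse 360 the dormant side was low-label cells only, and in mouse 369 2 of its 6 cells were. With labelled dormant cells alone the mean over all members differed by −0.01 in mouse 369, and the complex V score by 0.13 there, so that it was lower in 2 of the 3 mice that had both. With the rescaling named above the member median turned to 0.09, with that of all genes at −0.48.

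**Figure D3:**
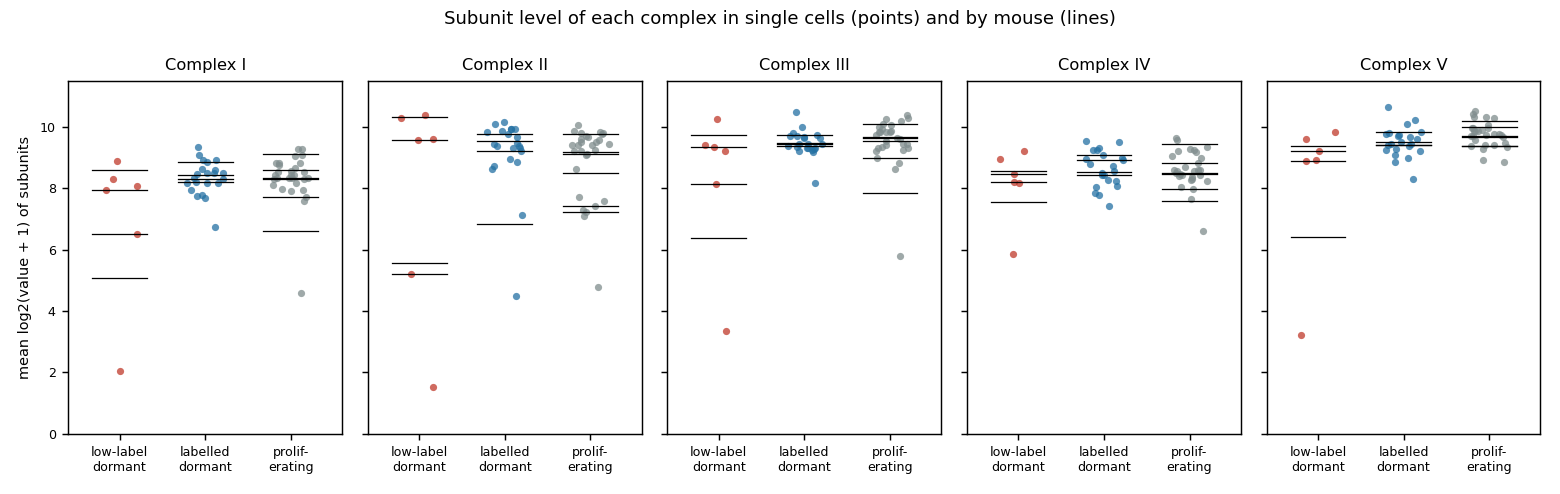
Mean log2(value + 1) over the subunits of each complex in every cell (points) and averaged by mouse (lines), in 6 low-label dormant, 22 labelled dormant and 29 proliferating cells. The 3 groups overlap in every complex, and the lowest point of each complex, between 1.54 and 5.88, is a low-label dormant cell.

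Labelled dormant and proliferating cells overlapped in the score of every complex. Of the pan-leukocyte genes, 14 were tested here and 13 had differences above 0, at a median of 1.44, and their part in the member values was not tested. Averaged over all 81 members, mouse means ran from 8.69 to 9.00 in labelled dormant cells (8.85 ± 0.14, SD, n = 4 mice) and from 7.53 to 9.49 in proliferating cells (8.65 ± 0.69, SD, n = 6 mice). limma called 0 members and 0 of 11595 genes (a background of 0%), with unadjusted p under 0.05 for Atp5c1 alone among the members and for 168 genes higher and 59 lower among all, while edgeR called 0 genes and DESeq2 called 14, with no member. The member median was 0.16 with 53 above 0, beside 0.09 over all genes, and it was −0.14 with the mouse as a block and −0.07 when mice were weighted by their cells. Over single cells, the share of all normalised reads taken by the 81 members had a median of 1.84% in labelled dormant and 2.12% in proliferating cells. The ranges were 1.36% to 3.55% and 1.45% to 3.53%. By mouse the share averaged 2.24% ± 0.54% in labelled dormant and 2.19% ± 0.30% in proliferating cells (SD), so the lower median did not hold by mouse. Counted by complex over single cells, V took a median of 39.4% of the members' reads in labelled dormant cells and 41.8% in proliferating cells, and I took 27.5% and 26.9%. By mouse V averaged 38.2% and 40.1%, and I 27.7% and 26.9%.

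Low-label dormant cells had lower mean levels than labelled ones of 3 members whose adjusted p lay just above the threshold, the ATP synthase subunits Atp5b and Atp5d and the complex I subunit Ndufb9. limma called 0 of the 81 members at 0.05, against 860 of 11843 genes (7.26%), 131 higher and 729 lower. Unadjusted p fell under 0.05 for 9 members, all lower in low-label cells: Ndufb9, Ndufs1, Ndufs7, Ndufs8, Ndufa10, Ndufc2, Uqcrc2, Atp5b and Atp5d. Over all genes tested, 729 were lower even after adjustment, and 16.2% had mouse means wholly lower in low-label cells, so low values were common beyond these members. The like count over all genes at unadjusted p under 0.05 is not given here. The 9 are therefore not read as a result about the members. With the mouse as a block, which the labels support, 12 of the 81 members were called lower and none higher, the 9 named above with Sdhb, Ndufa8 and Ndufa11. In that fit 4522 of 11843 genes were called, 4354 of them lower, so members were called less often than genes over all. Only 2 mice, 369 and 1184, gave both kinds of dormant cell, so that fit rests on them and on the proliferating cells. edgeR called 0 members and 694 genes, and DESeq2 called 1 member, Atp5e, as higher, and 2016 genes. Leaving out mouse 360 gave 6 members lower, leaving out mouse 244 gave 2, and leaving out mouse 288, which has proliferating cells only, gave 1. The number of genes called over all moved with the mouse left out as well, so these counts are not read as a result about the members.

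For Atp5b, the 6 low-label dormant cells held 18.8, 1057, 1601, 1819, 4241 and 5113 normalised reads, against 2533 to 12160 with a median of 7580 in the 22 labelled dormant cells. By mouse the means were 7.48, 10.05, 10.83 and 12.19 in low-label cells, against 12.25, 12.70, 12.86 and 13.07 in labelled ones, with no overlap. The difference was −2.58 (SE 0.82), with an adjusted p of 0.055 by limma. Without dormant cell 25 of mouse 369, the cell at 18.8, it was −1.79 (SE 0.52) with an adjusted p of 0.049, and without the cells under 3500 genes it was −1.61 (SE 0.33) with an adjusted p of 0.0045. Among dormant cells, the cut at 3500 genes drops low-label cells 25 and 103 and labelled cell 51. Cell 103 is the only low-label cell of mouse 1184, so that mouse leaves the low-label side. Both settings were chosen after the data were seen.

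Atp5d (chr10:80138632-80145818, plus strand) and Ndufb9 (chr15:58933756-58939488, plus strand) were lowest in the same pair of low-label cells, cell 25 of mouse 369 and cell 103 of mouse 1184. Atp5d was at 0, 5.3, 372, 440, 510 and 590 normalised reads in low-label cells, against 582 to 1780 in labelled dormant cells. Its mouse means of 2.66, 4.27, 8.79 and 9.10 all lay under the labelled ones, of which the lowest was 9.97, and its difference was −4.01 (SE 1.26), with an adjusted p of 0.053 by limma. Ndufb9 was at 0, 13.3, 350, 421, 442 and 948 in low-label cells, against 592 to 2259 in labelled dormant cells, with a difference of −3.78 (SE 1.18) and an adjusted p of 0.052 by limma. Without cell 25 the differences were −2.95 for Atp5d and −2.72 for Ndufb9, with adjusted p of 0.123 and 0.108 by limma. Without the cells under 3500 genes they were −1.42 and −1.52, with adjusted p of 0.079 and 0.041 by limma. In Atp5b, Atp5d and Ndufb9 the lowest low-label value came from cell 25 of mouse 369. Mouse means lay wholly lower in low-label cells for 5 members (Atp5b, Atp5d, Atp5g1, Ndufa2 and Ndufb9), beside 16.2% of all genes tested, and wholly higher for 2 (Atp5e and Ndufb7), beside 1.15%. Atp5e, the epsilon subunit, had 203 to 704 normalised reads with a median of 524 in low-label cells, against 54.5 to 511 with a median of 196 in labelled ones, and limma gave a difference of 1.30 (SE 1.06) with an adjusted p of 0.409.

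**Figure D4:**
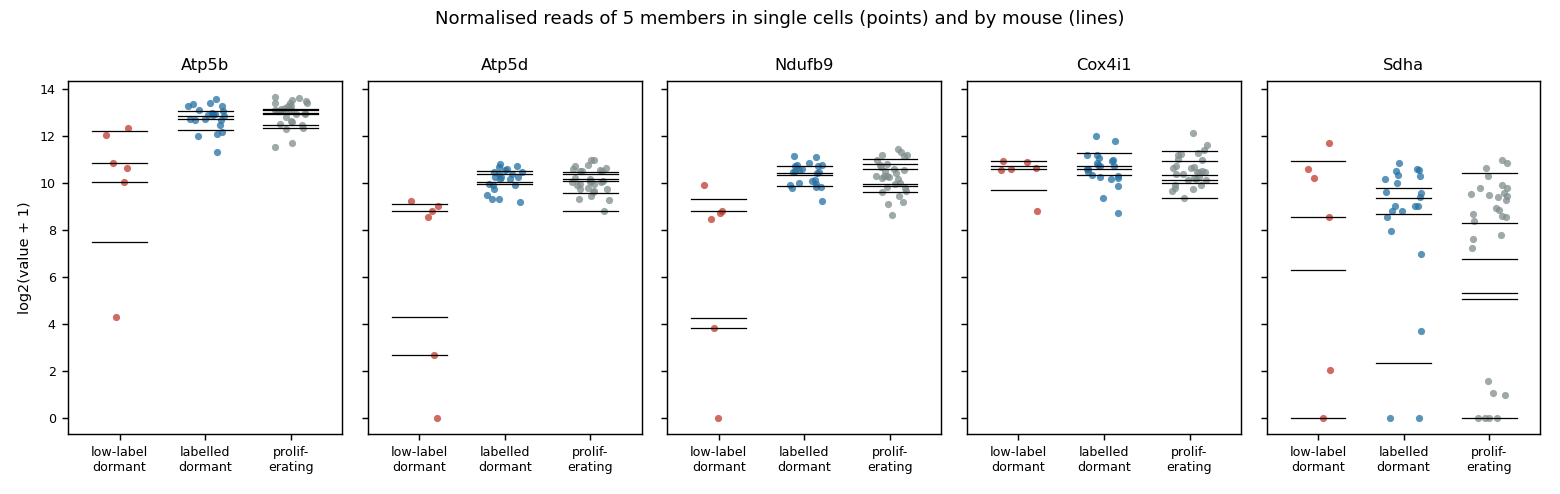
Normalised reads as log2(value + 1) of Atp5b, Atp5d, Ndufb9, Cox4i1 and Sdha in every cell (points) and averaged by mouse (lines), in low-label dormant, labelled dormant and proliferating cells. All 4 low-label mouse means of Atp5b, Atp5d and Ndufb9 lie under the labelled ones, Cox4i1 overlaps throughout, and Sdha splits into cells near 0 and cells near 10.

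The median difference of the members between low-label and labelled dormant cells depended on 1 sparse cell. The member median, low-label minus labelled, was −0.83 with 65 of 81 below 0, beside −1.47 over all genes tested. Medians by complex were −0.93 in I, −0.79 in II, −0.99 in III, −0.16 in IV and −0.79 in V. Averaged over all members, 5 of the 6 low-label cells scored 7.52 to 9.31, within the 7.46 to 9.76 of labelled dormant cells. The lowest of these was cell 103 of mouse 1184, with 3314 genes and 66 members above 0. Outside that range lay cell 25 of mouse 369, at 3.05 with 2672 genes and 43 members above 0. Without cell 25 the member median was −0.01 with 40 above and 41 below 0, and after the rescaling it was −0.01 as well. On summed reads the members lay above 0, at a median of 0.35 by edgeR and 0.64 by DESeq2, against −0.87 and −0.63 for all genes, so no direction for the whole chain holds across these settings. Of the 18 pan-leukocyte genes, 17 were tested in this comparison, all had differences above 0 and 10 were called higher in low-label cells. Their summed values ran from 47828 to 122896 normalised reads in low-label dormant cells, against 846 to 20602 in labelled dormant cells, and Ptprc, the common leukocyte surface gene, was at 0 in 1 of 6 low-label and 18 of 22 labelled dormant cells. The part of these genes, and of the number of genes read, in the member values was not tested.

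The makeup of the members' reads was also compared. By mouse, V took 28.4% to 34.2% of them in low-label dormant cells, against 33.9% to 43.4% in labelled dormant cells and 33.5% to 43.7% in proliferating cells. Complex IV took 17.8% to 29.8% in low-label and 17.1% to 20.7% in labelled dormant cells. In complex IV, 11 of 14 members differed by less than their SEs. The other 3 were Cox6a2 at −2.66 (SE 1.31), Cox7a2l at −2.69 (SE 1.71) and Cox7b at −1.18 (SE 1.10). Among the 11, the means were for Cox6b1 10.22 ± 0.59 in low-label and 9.75 ± 0.10 in labelled dormant cells, for Cox8a 10.18 ± 0.86 and 10.16 ± 0.25, for Cox5a 10.32 ± 0.46 and 10.16 ± 0.32, and for Cox4i1 10.48 ± 0.53 and 10.73 ± 0.39 (SD, n = 4 mice each).

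Across single cells the scores of complexes I, III, IV and V went together more closely than any did with complex II. Over the 51 cells with eCFP, the Spearman correlation between the scores of complexes I, III, IV and V ran from 0.60 to 0.79, for example 0.79 between I and III and 0.74 between I and V. Between complex II and the others it ran from 0.00 to 0.26. The complex II score is a mean of only 4 genes, among them Sdha with an SD of 3.60, against 8 to 38 genes in the other scores. It also went most closely with the number of genes above 0, at 0.549 against 0.057 to 0.362 for the others. The part of these in the weaker correlations of complex II was not tested. The points are cells that share mice and library batches.

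**Figure D5:**
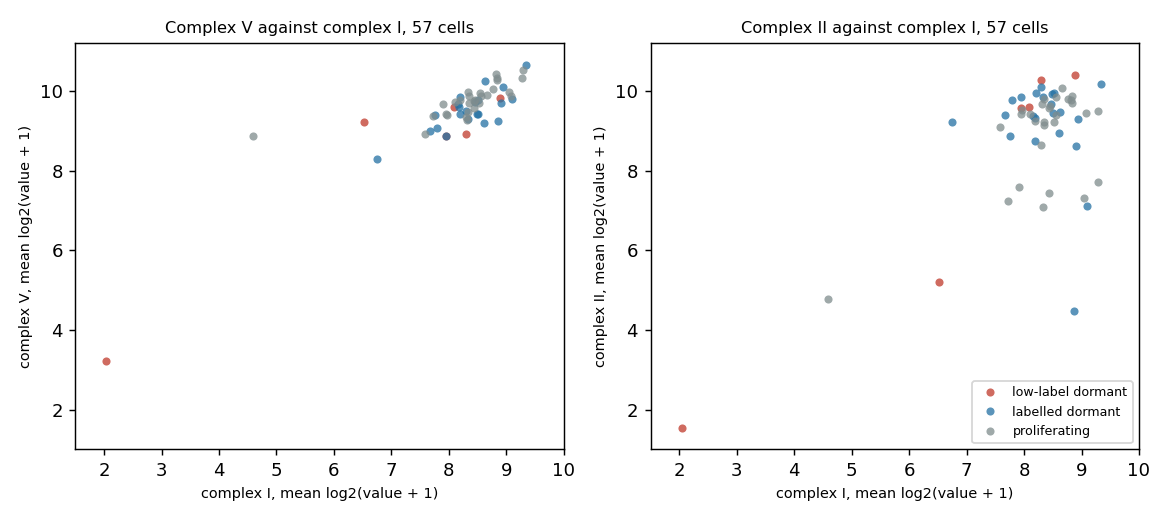
Scores (mean log2(value + 1) over subunits) of complex V and of complex II against complex I in 57 cells, coloured by group. Over the cells with eCFP, the Spearman correlation with complex I was 0.74 for V and 0.145 for II.

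Within complex II the least even member was Sdha, which lies at chr13:74322254-74350280 on the minus strand of GRCm38. Of 57 cells, 11 had less than 10 normalised reads of Sdha, at most 3.1, while the other 46 had 11.8 to 3304 with a median of 710, a limit of 10 chosen after the values were seen. These were 4 of 28 dormant and 7 of 29 proliferating cells, from 6 mice. Among them, 7 had at least 100 normalised reads each of Sdhb, Sdhc and Sdhd, with Sdhb between 884 and 1909. The 11 cells had 2397 to 7662 genes above 0 with a median of 4862, against 7572 over all cells, and the part of low detection in this was not tested. Sdha averaged 7.81 ± 2.93 in dormant and 5.97 ± 3.54 in proliferating cells (SD, n = 6 mice each), a difference of 1.84 (SE 1.46) with an adjusted p of 0.724 by limma. Without the low-label cells it was 1.56 (SE 1.72). Sdhd went the other way, at −0.82 (SE 0.62), and at −1.11 (SE 0.60) without the low-label cells. Sdhb differed by 0.33 (SE 0.77) and Sdhc by −0.06 (SE 0.73), and by 0.81 and −0.03 without those cells. Ndufs1 showed a split like that of Sdha, at 0 in 9 cells and from 89.1 to 1840 in the other 48, with 5 dormant and 4 proliferating cells at 0.

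Genes that serve the chain were read beside it from lists of assembly factors, electron carriers and regulators. Of 46 assembly factors, none passed in dormant against proliferating cells (median −0.59, 12 above and 34 below 0) or in labelled dormant against proliferating cells (0.08, with 25 above and 21 below 0). In low-label against labelled dormant cells 4 of them fell, with differences of −4.47 for Uqcc2, −4.77 for Nubpl, −4.76 for Atpaf2 and −4.84 for Cox19 and adjusted p of 0.036, 0.034, 0.046 and 0.035 by limma. Uqcc2 assists complex III, Nubpl places iron-sulfur clusters in complex I, Atpaf2 builds the head of the ATP synthase and Cox19 helps bring copper to complex IV. These 4 of 46 are 8.7%, near the 7.26% of all genes called in that comparison. The list median there was −2.25, with 43 of 46 below 0, beside −1.47 over all genes. Of 14 genes for cytochrome c, cytochrome c1 (Cyc1), electron-transfer flavoproteins and ubiquinone synthesis, none was called in these comparisons. Their medians were −0.81, −0.16 and −2.95 in the same order. Of 14 regulators, 12 were tested and none was called, with medians of −1.0, −0.69 and −1.65. Tfam, which packages mitochondrial DNA and helps start its transcription, had the largest difference of those. It was −4.64 (SE 1.65) in low-label against labelled dormant cells, with an adjusted p of 0.077 by limma. Tfb2m followed at −4.32 (SE 1.49), with an adjusted p of 0.072 by limma, while Esrra and Yy1 lay above 0, at 1.01 and 1.76. The 13 protein genes of the mitochondrial DNA itself had medians of 0.84, 0.99 and −1.20 in these comparisons, none called. Their summed normalised reads went the other way over all dormant cells, with mouse averages of 93371 ± 37366 in dormant and 112323 ± 67576 in proliferating cells (SD). In labelled dormant cells the average was 114418 ± 31190. Single cells ran from 1271 to 561365, and the lowest proliferating mouse value, 2299, is the only cell of mouse 288.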

How the data were processed

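The deposited values are a signal, reads per gene and cell that the authors normalised with BASiCS, per the series text, in a table of 57 cells and a table of the 4 mice with both states. SMARTer cDNA, Nextera XT libraries and ERCC spike-ins were used, per the labels' protocols, and the submitters' processing notes name STAR, RSEM, GRCm38 and mm10 without versions or roles. In each cell a single value per read turned 100% of gene values into whole numbers (tolerance 0.01), so whole reads were recovered.

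The mouse was the replicate. For genes with reads in 6 or more cells, log2(value + 1) was averaged per mouse and state and tested with limma 3.58.1 (trend and robust moderation) and Benjamini-Hochberg adjustment at 0.05 over all genes tested. Differences on this scale understate the change of low genes and also move with the number of cells at 0. All 81 members passed this filter in each comparison. The low-label comparison was fitted with the proliferating means sharing the spread. Means of mice with 1 cell rest on that cell. edgeR 4.0.16 and DESeq2 1.42.0 on summed recovered reads were alternatives, with other pseudocounts, filters, averaging, weights, scaling, cells and mice. Cells of both states from a mouse pair by the labels; deviations of the paired means correlated at 0.36, 0.09, 0.01 and −0.01 in mice 369, 452, 1185 and 360.

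Members, lists, tests and the eCFP threshold of 100 were chosen with earlier results of these data known. Named were members past the threshold, the 3 per complex with the smallest p in dormant against proliferating cells, the 2 per complex in low-label against labelled cells, and a fixed set of isoforms and core subunits. Others are named where a sentence lists 5 or fewer, singles out a level or lists the members of an unadjusted count, which was decided after their values were seen. Cox4i2, Ndufa4l2, Cox6b2, Cox7b2, Cox8b and Cox8c are not analysed here. Lengths come from GENCODE on GRCm38, and of 12887 IDs 12852 had a symbol. The scripts were tested on simulated data. The software was Python 3.11.15 (scipy 1.17.1, matplotlib 3.10.9, pandas 2.3.3) and R 4.3.3.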

Additional observations from a re-analysis of the deposited data

Results flagged for a closer look

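Among 72 groups of mouse values examined for a value far from the rest, 7 were picked out. Chance alone picks about 1 in 20 such groups, but that rate does not hold where the other mice are all at 0, as for Atp5s and Cox6a2, and the Sdha value of mouse 452 is counted in 2 groups. In low-label dormant cells, the complex V score was lowest in mouse 369, at 6.41 against 8.88 to 9.38 in the other 3 mice. In the same group Atp5s was highest in mouse 369, at 4.10 with the other 3 at 0, and Cox6a2 was highest there too, at 2.27 with the other 3 at 0. Atp5g3 in dormant cells was lowest in mouse 244, at 9.27 against 10.96 to 11.51, and that mouse gave a single dormant cell. Sdha was lowest in mouse 452, at 2.32, against 7.83 to 10.95 in the other dormant means and 8.66 to 9.79 in the other labelled dormant means. Sdhb in proliferating cells was lowest in mouse 268, at 5.45 against 9.87 to 10.83. All these are means of log2(value + 1).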

How the results depend on the processing

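Results are for limma unless a tool is named. In dormant against proliferating cells over all mice, DESeq2 called 304 genes and every other setting 0, and no setting called a member. In the mice with both states DESeq2 called 218 genes and leaving out leukocyte-rich cells 1, and the member median was 0.0908 after median-of-ratios rescaling. With and without the replicate block it was −0.348, which the design fixes, since each mouse gives 1 mean of each state. On summed reads edgeR and DESeq2 gave member medians of 0.11 and 0.19 over all mice and 0.12 and 0.13 in the mice with both states, the opposite sign to limma. In labelled dormant against proliferating cells DESeq2 called 14 genes, and the member median was −0.0675 weighted by cells, −0.0668 without cells under 3500 genes, −0.1362 with the replicate block, −0.1178 with an eCFP threshold of 1000, and 0.033 to 0.4003 leaving out a mouse in turn (highest without mouse 1185).

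In low-label against labelled dormant cells the members called were 3 each with pseudocount 10, genes above 0 in at least 20 cells, genes above 0 in nearly all cells, log2 of the mean value and weighting by cells, 2 without cells under 3500 genes, 1 without dormant cell 25 of mouse 369, 1 by DESeq2, 12 with the replicate block, and 0 to 6 leaving out a mouse. The genes called were 2204 with log2 of the mean, 470 rescaled, 2016 by DESeq2, 537 among genes above 0 in nearly all cells, 4522 with the replicate block, 559 and 22 with eCFP thresholds of 10 and 1000, and 124 (without mouse 1185) to 1519 (without mouse 360) leaving out a mouse, with 174 without mouse 369, 416 without 1184 and 570 without 452. The member median was −0.6211 and −0.9803 with pseudocounts of 10 and 0.1, −0.2896 with log2 of the mean, −0.9723 weighted, −0.0148 rescaled, −0.0116 without cell 25, −0.0537 without cells under 3500 genes, −1.1684 with the replicate block, −1.7673 and −0.056 with eCFP thresholds of 10 and 1000, and −1.2051 (without mouse 1184) to −0.0568 (without mouse 369) leaving out a mouse. The settings of cell 25, of 3500 genes and of nearly all cells were chosen after seeing the data. The comparison without leukocyte-rich cells could not be fitted, since all 6 low-label cells are among them. Without mouse 360, 6 members and 1519 genes were called. The genes called over all are not given here for pseudocount 10, the filter of 20 cells, weighting, cell 25 and 3500 genes. No share over all genes stands beside those member counts. Since the genes called over all moved with the settings too, the counts of members called are not read as a result about the members. The causes of these shifts were not tested. Of 799 values of 35 named members under these alternatives, 32 passed the threshold where the main one did not, 103 changed sign and none was a reversed call. Mice with 1 or 2 cells and cells with few genes read limit what these means can show.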
